A study of Mus musculus with 16 samples.

Results

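The complement system is a cascade of plasma proteins that tissues, the brain included, also make locally. Described here are 9 genes of it in the mouse striatum, 9 of the 24058 gene symbols in the read-count table. They were taken from the table by symbol and are the C1q chains C1qa, C1qb and C1qc, the cascade proteins C3 and C4b, the inhibitor Serping1, and the receptor genes C3ar1, C5ar1 and Itgam. The RNA came from 9-week-old male C57BL/6J mice of wild-type genotype in which astrocytes expressed bARK or bARK(D110A). The first is a kinase fragment (of β-adrenergic receptor kinase) that dampens signalling through Gq proteins, and the second is the same fragment with the amino acid change D110A in its Gq-binding region. All mice also had a hemagglutinin tag on astrocyte ribosomes, and each construct gave 4 libraries of ribosome-bound RNA precipitated through that tag (IP) and 4 of the cleared whole-striatum lysate (input), so that the groups were bARK IP, bARK input, bARK(D110A) IP and bARK(D110A) input. How the constructs and the tag were delivered, and which promoter drove them, the sources used here do not give, and no group without a construct was analysed here. The IP libraries held 41469718 to 51432173 counted reads and the input libraries 27807178 to 38003523. The labels number the libraries of each group 1 to 4. IP and input of the same construct and number were read as 1 mouse. Since no label spells out that the numbers stand for different animals, the p-values reflect the scatter among these libraries, which may be technical.

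In the classical pathway the C1q protein, built from A, B and C chains, binds a target and activates the proteases C1r and C1s. These cut C4 and C2, which form the enzyme that cuts C3. Fragments of C3 tag surfaces and are read by complement receptor CR3, whose alpha chain is the product of Itgam, while the small released fragments of C3 and C5 act on the receptors C3aR (C3ar1) and C5aR1 (C5ar1). The C1 inhibitor, product of Serping1, blocks C1r and C1s. In the brain C1q and these receptors are known mainly from microglia, astrocytes are a known source of C4 and C3, and the pathway is known for tagging synapses that microglia remove.

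The 3 C1q genes lie side by side on the minus strand of chromosome 4, where in mm10 (GRCm38.p6, RefSeq) C1qb spans 136880126 to 136886200, C1qc 136889801 to 136892936 and C1qa 136895916 to 136898844. C3 (57203967 to 57228136) and C4b (34728139 to 34743902) lie on the minus strand of chromosome 17, Serping1 on that of chromosome 2 (84765360 to 84775444), C3ar1 on that of chromosome 6 (122847140 to 122856157) and C5ar1 on that of chromosome 7 (16246743 to 16259540), and Itgam lies on the plus strand of chromosome 7 (128062640 to 128118491). The RefSeq promoter table of the same build held, for 6 of the 9 genes (C1qb, C1qc, C3, C3ar1, C5ar1 and Itgam), the 250 bases before a transcription start that the table gives. That start lies inside the spans above for C1qc, by a few bases, and for C5ar1, whose window is mostly within the gene and is not shown. The windows of C1qb, C1qc, Itgam and C3ar1 are shown because these genes were lower in IP than in input, and that of C3 because it did not pass the test there. Capitals mark the letters GAGGAA, or TTCCTC where they lie on the opposite strand. Sites of ETS-type factors, such as the myeloid factor encoded by Spi1, can hold these letters. Shorter parts of them, such as GGAA, were not marked. The windows are chr4:136886201-136886450, minus strand, for C1qb, chr4:136892915-136893164, minus strand, for C1qc, chr7:128062390-128062639, plus strand, for Itgam, chr6:122856158-122856407, minus strand, for C3ar1 and chr17:57228137-57228386, minus strand, for C3, each written 5′ to 3′ on its gene's strand.
C1qb: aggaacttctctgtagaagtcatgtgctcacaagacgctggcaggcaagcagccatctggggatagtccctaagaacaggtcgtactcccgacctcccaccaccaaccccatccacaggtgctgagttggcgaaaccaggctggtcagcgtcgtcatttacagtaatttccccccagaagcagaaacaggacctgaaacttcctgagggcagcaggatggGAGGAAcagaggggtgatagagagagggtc
C1qc: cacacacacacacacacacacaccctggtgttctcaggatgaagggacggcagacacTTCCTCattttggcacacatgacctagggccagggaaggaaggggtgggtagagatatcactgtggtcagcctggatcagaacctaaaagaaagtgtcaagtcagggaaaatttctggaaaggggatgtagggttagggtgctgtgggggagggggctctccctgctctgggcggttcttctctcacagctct
Itgam: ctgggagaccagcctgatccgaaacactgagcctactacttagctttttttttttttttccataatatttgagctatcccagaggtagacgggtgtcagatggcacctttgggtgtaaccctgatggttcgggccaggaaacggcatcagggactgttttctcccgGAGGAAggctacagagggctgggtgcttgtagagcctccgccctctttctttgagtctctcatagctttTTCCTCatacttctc
C3ar1: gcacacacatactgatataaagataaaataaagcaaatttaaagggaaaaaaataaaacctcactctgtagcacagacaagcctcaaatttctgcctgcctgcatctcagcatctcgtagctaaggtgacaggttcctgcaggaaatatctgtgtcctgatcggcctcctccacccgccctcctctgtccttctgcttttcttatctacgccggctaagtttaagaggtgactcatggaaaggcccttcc
C3: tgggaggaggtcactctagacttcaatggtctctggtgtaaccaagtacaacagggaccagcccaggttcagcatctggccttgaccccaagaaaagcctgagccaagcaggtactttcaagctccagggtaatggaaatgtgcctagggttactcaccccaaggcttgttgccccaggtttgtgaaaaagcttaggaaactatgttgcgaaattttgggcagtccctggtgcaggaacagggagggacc

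GAGGAA, searched on both strands, occurred at 1 place in the windows of C1qb and C1qc and at 2 places in that of Itgam, and in none of those of C3, C3ar1 and C5ar1, so that it was in 3 of the 5 windows of genes that were lower in IP. Of the 32851 promoters in the table, 23.3% held it within the same 250 bases. The letters TTCNNNGAA, the core of STAT-type sites, read the same on both strands, occurred in none of the 6 windows and in 7.02% of all promoters. A match is a description of the letters and not a site.

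The 9 genes fell into 3 patterns between astrocyte ribosomes and whole striatum, and the pattern of each gene was the same with both constructs. With bARK, 2 genes were higher in IP (C4b and Serping1), 6 were lower (the C1q chains, C3ar1, C5ar1 and Itgam) and C3 did not pass the test (edgeR's quasi-likelihood test, adjusted p under 0.05). Of all 15850 genes tested with bARK, 37.6% were called higher and 38.1% lower in IP, 75.8% in all. With bARK(D110A) the same 2 genes were higher and the same 6 lower, against 36.5% of all genes called higher and 37.2% lower, 73.7% in all. Most genes tested were thus called between IP and input. The median log2 fold change of the 9 genes was -4.96 with bARK and -5.11 with bARK(D110A), beside -0.01 over all genes tested with each construct. The bARK median is the value of C5ar1 itself, which rests on 3 reads in bARK IP. With the library size as the only scaling, the calls over all genes were 4806 higher and 7333 lower with bARK, in place of 5966 and 6044, and 4459 and 7473 with bARK(D110A), in place of 5786 and 5891. That scaling moved the median of all genes by -0.14 and -0.16 on the log2 scale, and each of the 8 called members kept its direction and its call under it. C3ar1 and C5ar1 passed the filter on low counts through their input libraries alone, so the filter itself favours a lower call for both.

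**Figure D1:**
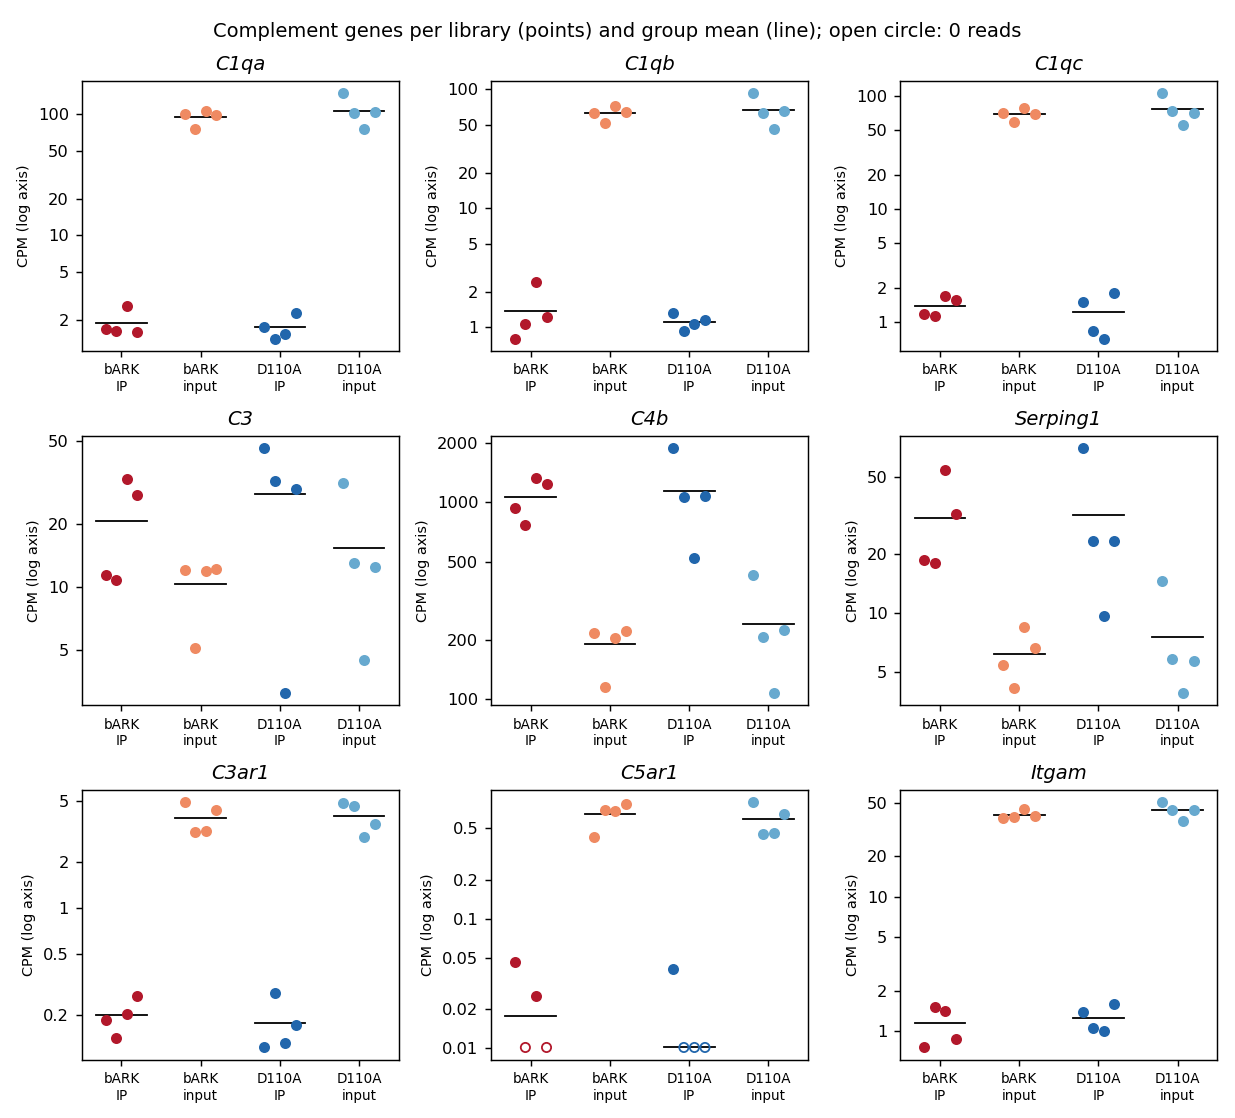
Level of each of the 9 complement genes in every library, as CPM (read counts scaled to the library's effective size) on a log axis, with 4 points per group (mice 1 to 4 from left to right), a line at the group mean and open circles at the bottom for libraries with 0 reads. The C1q chains, C3ar1, C5ar1 and Itgam lie lower in IP than in input with both constructs, C4b lies higher in IP, and the bARK(D110A) mice 1 and 3 lie at the ends for C3, C4b and Serping1.

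The cell types in the 2 kinds of RNA were checked with marker lists. All 14 astrocyte markers were higher in IP with each construct, with a median log2 fold change of 2.60 with bARK and 2.40 with bARK(D110A), and their summed level was 34080.5 to 40845 CPM in bARK IP against 5911 to 6282 CPM in bARK input, and 28937 to 35499 CPM in bARK(D110A) IP against 5410.5 to 6371 CPM in bARK(D110A) input. Of 20 microglia markers, 19 were lower in IP with each construct, with medians of -4.65 and -4.91, and Sall1 alone was not: it was higher with bARK (0.48) and did not pass with bARK(D110A) (0.16). The summed microglia level was 93.4 to 112 CPM in bARK IP against 847 to 957 CPM in bARK input, and 85.6 to 108 CPM in bARK(D110A) IP against 808 to 1246 CPM in bARK(D110A) input. None of the 20 was at 0 in any library. Border macrophage markers had medians of -4.24 and -4.77 over the 5 that passed the filter, endothelial markers of -3.37 and -3.62 over 10, mural cell and fibroblast markers of -1.35 and -1.77 over 11, neuronal markers of -0.64 and -0.46 over 12, and oligodendrocyte markers of 0.16 and 0.08 over 8. Of the 7 ependyma and choroid plexus markers, 5 were higher and 2 lower in IP with bARK. With bARK(D110A) 5 were higher, 1 was lower and 1 did not pass. The medians over all 7 markers were 2.22 and 1.89. Their summed level was 80.6 to 119.5 CPM in bARK IP against 24.0 to 25.7 CPM in bARK input, and 57.1 to 153 CPM in bARK(D110A) IP against 25.4 to 47.2 CPM in bARK(D110A) input. The 3 neutrophil and monocyte markers that passed the filter were lower, with medians of -4.00 and -3.86. In the 8 IP libraries alone, 0 neutrophil and monocyte markers and 2 border macrophage markers passed the filter. Of the microglia markers 19 of 20 did, and of the mural cell and fibroblast markers 9 of 11. For markers that did not pass there, the filter itself favours a lower call. The part of ependyma and choroid plexus RNA in the values of C4b, Serping1 and C3 was not tested.

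All 3 C1q chains fell in IP, with log2 fold changes between -5.53 and -5.94. C1qa, the A chain, had 1.71, 1.63, 2.60 and 1.61 CPM in bARK IP (libraries 1 to 4), against 99.5, 75.7, 106 and 97.5 CPM in bARK input. With bARK(D110A) it had 1.75, 1.41, 1.53 and 2.29 CPM in IP, against 148, 101, 74.6 and 103 CPM in input. Every IP library thus lay far under every input library, and the groups did not overlap with either construct. The log2 fold change of C1qa was -5.66 ± 0.24 (SE) with bARK (edgeR adjusted p = 3.9e-11) and -5.93 ± 0.24 with bARK(D110A) (edgeR adjusted p = 3.1e-11). Within single mice the input level was 40.9 to 60.5 times the IP level with bARK and 45.1 to 84.5 times with bARK(D110A).

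C1qb, the B chain, had 0.807, 1.07, 2.42 and 1.22 CPM in bARK IP, against 63.8, 51.7, 71.8 and 64.4 CPM in bARK input. With bARK(D110A) there were 1.32, 0.926, 1.07 and 1.16 CPM in IP, against 92.7, 63.6, 46.2 and 65.6 CPM in input. The highest IP library, number 3 of bARK, rested on 95 reads and the lowest, number 1 of bARK, on 35. The log2 fold change of C1qb was -5.53 ± 0.29 (SE) with bARK and -5.89 ± 0.29 with bARK(D110A). C1qc, the C chain, had 1.18, 1.14, 1.71 and 1.57 CPM in bARK IP, against 70.1, 58.8, 77.8 and 69.0 CPM in bARK input. Its bARK(D110A) levels were 1.53, 0.833, 0.719 and 1.83 CPM in IP, against 106, 73.9, 55.5 and 70.4 CPM in input. Its log2 fold change was -5.62 ± 0.27 (SE) with bARK and -5.94 ± 0.27 with bARK(D110A), and for both chains all IP libraries lay under all input libraries.

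The chains kept nearly the same ratio to each other in both kinds of RNA. C1qb had 0.704 ± 0.191 reads per C1qa read in bARK IP and 0.665 ± 0.019 in bARK input, and 0.655 ± 0.105 in bARK(D110A) IP and 0.628 ± 0.0072 in bARK(D110A) input (SD, n = 4 each). C1qc had 0.755 ± 0.146 reads per C1qa read in bARK IP and 0.731 ± 0.033 in bARK input, and 0.684 ± 0.186 in bARK(D110A) IP and 0.718 ± 0.026 in bARK(D110A) input. The means of IP and input differed by less than the SD between IP libraries for both ratios and both constructs. IP ratios rest on 33 to 106 reads per chain and library, and input ratios on 1509 to 4662. Set against the summed microglia markers, the 3 chains together came to 4.52% ± 1.01 in bARK IP and 24.6% ± 2.0 in bARK input, and to 4.24% ± 0.65 in bARK(D110A) IP and 24.4% ± 2.6 in bARK(D110A) input. The marker sum is made up unequally in the 2 kinds of RNA: Sall1 held 28.4% of it in IP and 2.34% in input.

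By their course over the 16 libraries, the genes most like C1qa were C1qc, C1qb and Csf1r, the receptor gene that microglia depend on. Their root-mean-square differences from C1qa in log2(CPM + 0.5), each gene centred on its own mean, were 0.16, 0.18 and 0.22, among 13797 genes compared. The measure is taken over IP and input libraries together, so the step between them is part of it.

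Itgam, the alpha chain of CR3, had 0.761, 1.52, 1.43 and 0.884 CPM in bARK IP, against 38.8, 39.3, 44.9 and 39.6 CPM in bARK input. The bARK(D110A) libraries had 1.38, 1.06, 1.00 and 1.60 CPM in IP, against 50.5, 44.2, 36.5 and 44.4 CPM in input. Its groups did not overlap, and the log2 fold change was -5.15 ± 0.18 (SE) with bARK (edgeR adjusted p = 4.9e-13) and -5.11 ± 0.18 with bARK(D110A) (edgeR adjusted p = 6.4e-13). Of the 75-base windows of its transcript in GENCODE vM21, 71.7% occur in the overlapping gene model Gm49368 too, which has no row in the table, and how reads that match both were counted is not given in the sources used here. Relative to C1qa, Itgam stood higher in IP: it had 0.618 ± 0.213 reads per C1qa read in bARK IP and 0.435 ± 0.058 in bARK input, and 0.725 ± 0.059 in bARK(D110A) IP and 0.425 ± 0.062 in bARK(D110A) input (SD, n = 4 each). With bARK the ranges of that ratio overlapped (0.446 to 0.929 in IP, 0.390 to 0.519 in input), and with bARK(D110A) they did not (0.657 to 0.791 in IP, 0.341 to 0.489 in input). No test of this difference was run. The genes most like Itgam over the 16 libraries were the microglia markers Tmem119, Selplg and Cx3cr1, with root-mean-square differences of 0.18, 0.19 and 0.21.

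C3ar1, the receptor for the small C3 fragment, had 0.184, 0.140, 0.204 and 0.265 CPM in bARK IP, against 4.89, 3.12, 3.18 and 4.33 CPM in bARK input. In bARK(D110A) it had 0.122, 0.278, 0.131 and 0.173 CPM in IP, against 4.86, 4.63, 2.89 and 3.54 CPM in input. These are 6 to 12 reads per IP library and 91 to 163 per input library, with no overlap. Its log2 fold change was -4.26 ± 0.27 (SE) with bARK and -4.49 ± 0.28 with bARK(D110A). From the summed reads, 34 in bARK IP against 540 in bARK input and 32 in bARK(D110A) IP against 540 in bARK(D110A) input, the input level was 19.5 times the IP level with bARK (95% interval 13.8 to 28.4) and 22.7 times with bARK(D110A) (15.9 to 33.5). These exact intervals cover counting error only.

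C5ar1, the receptor for the small C5 fragment, was the scarcest member. It had 2, 0, 1 and 0 reads in bARK IP, against 14, 20, 27 and 29 reads in bARK input. With bARK(D110A) there were 2, 0, 0 and 0 reads in IP, against 25, 16, 18 and 20 reads in input. A library with 0 reads allows up to 3, which is 0.0647 to 0.0700 CPM in the 5 IP libraries at 0. The summed 3 reads in bARK IP against 90 in bARK input gave an input level 36.8 times the IP level (95% interval 12.2 to 182), and the 2 reads in bARK(D110A) IP against 79 in bARK(D110A) input gave 53.1 times (14.2 to 447). The fitted log2 fold change, -4.96 ± 0.60 (SE) with bARK and -5.39 ± 0.64 with bARK(D110A), depends on a handful of IP reads. Without library 1 of bARK IP it was -5.88, and without library 1 of bARK(D110A) IP, which held all the reads of its group, it was -7.51 and no bound.

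**Figure D2:**
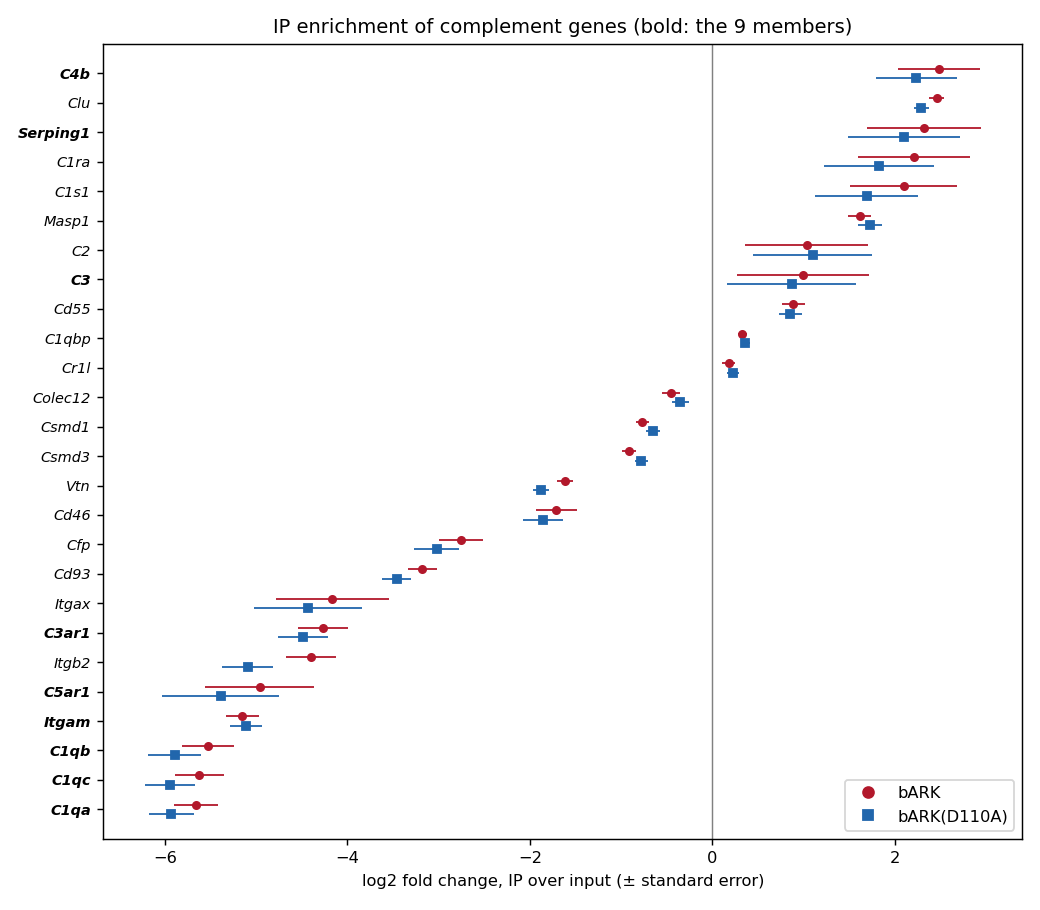
Log2 fold change of IP over input for the 9 members (bold) and the other complement genes whose values the text gives, in bARK (red circles) and bARK(D110A) (blue squares), with bars of 1 standard error. C4b, at 2.49 and 2.24, lies near the top beside Clu, the C1q chains, between -5.53 and -5.94, lie at the bottom, and C3 lies near 1 with wide bars.

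C4b, which encodes the mouse C4 protein, was the most abundant member on astrocyte ribosomes. It had 937, 771, 1323 and 1234 CPM in bARK IP, against 217, 116, 205 and 222 CPM in bARK input. The bARK(D110A) levels were 1896, 1063, 521 and 1080.4 CPM in IP, against 429, 207, 107 and 226 CPM in input. No IP library of a construct reached down to an input library of it, although the levels of mice differed widely. The log2 fold change was 2.49 ± 0.45 (SE) with bARK (edgeR adjusted p = 0.00022) and 2.24 ± 0.44 with bARK(D110A) (edgeR adjusted p = 0.00052), close to the median of the astrocyte markers. Mouse by mouse the ratio of IP to input varied little, 4.31 to 6.66 with bARK and 4.42 to 5.15 with bARK(D110A), and was above 1 in 8 of 8 mice. Of the 75-base windows of the C4b transcript, 23.5% also occur in its paralog C4a, whose row held 14 to 38 reads per library, against 3378 to 93080 for C4b.

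Serping1, the C1 inhibitor, had 18.8, 18.0, 54.0 and 32.4 CPM in bARK IP, against 5.37, 4.11, 8.44 and 6.60 CPM in bARK input. Its bARK(D110A) levels were 70.6, 23.5, 9.65 and 23.4 CPM in IP, against 14.5, 5.83, 3.88 and 5.69 CPM in input. With bARK the groups did not overlap, and with bARK(D110A) IP library 3 lay under input library 1. The log2 fold change was 2.32 ± 0.62 (SE) with bARK (edgeR adjusted p = 0.0045) and 2.10 ± 0.62 with bARK(D110A) (edgeR adjusted p = 0.0078). Within mice the ratio of IP to input was 3.50 to 6.40 with bARK and 2.49 to 4.86 with bARK(D110A), above 1 in 8 of 8 mice. The bARK(D110A) value leaned on library 1: it was 1.35 without IP library 1, 2.65 without input library 1 and 1.88 without both, and passed the test each time.

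C3, the protein on which the pathways converge, was the member whose difference between IP and input depended on the fit. It had 11.4, 10.8, 33.1 and 27.5 CPM in bARK IP, against 12.1, 5.11, 11.9 and 12.2 CPM in bARK input. In bARK(D110A) it had 46.5, 32.1, 3.12 and 29.5 CPM in IP, against 31.4, 12.99, 4.49 and 12.5 CPM in input. IP was higher in 3 of 4 mice with each construct, and lower in mouse 1 of bARK (0.941 times input) and in mouse 3 of bARK(D110A) (0.694 times), so that the groups overlapped. The log2 fold change of C3 was 1.00 ± 0.72 (SE) with bARK (edgeR adjusted p = 0.23) and 0.87 ± 0.71 with bARK(D110A) (edgeR adjusted p = 0.28). With the mouse as a block it was 0.93 ± 0.33 (adjusted p = 0.033), which passed, with bARK, and 0.78 ± 0.33 (adjusted p = 0.059), which did not, with bARK(D110A). Over the libraries left out in turn its value without the block ran from 0.67, without IP library 3, to 1.28, without both libraries of mouse 1, with bARK. With bARK(D110A) it ran from 0.52, without IP library 1, to 1.498, without input library 1, and it passed the test in none of these.

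**Figure D3:**
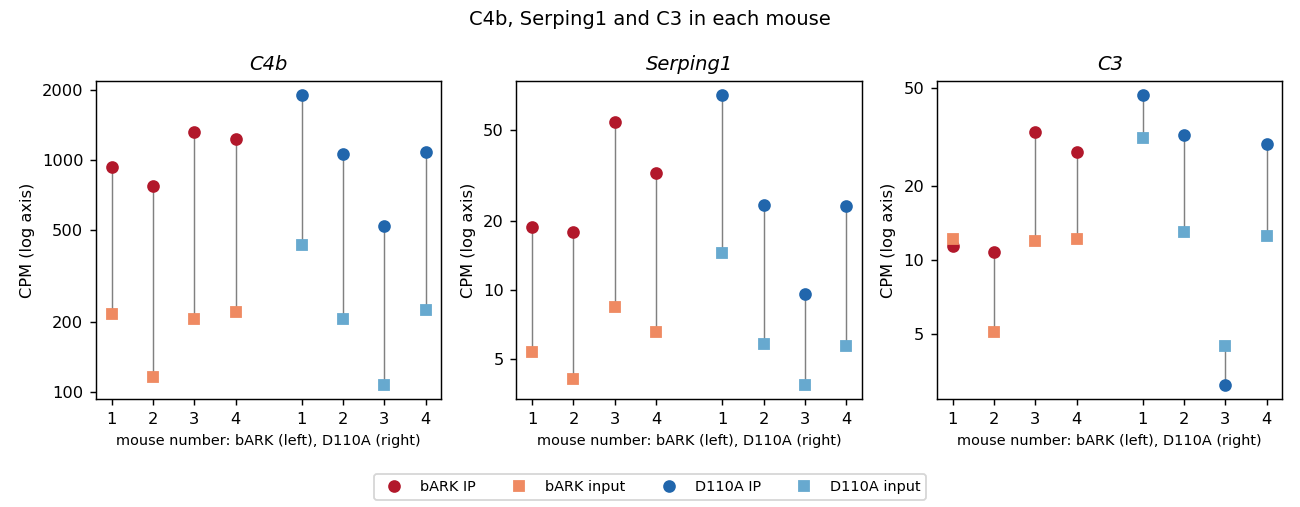
C4b, Serping1 and C3 in each mouse, as CPM on a log axis, with IP (circles) and input (squares) of a mouse joined by a line, bARK on the left and bARK(D110A) on the right of each panel. C4b shows lines of nearly equal length from different starting levels, and C3 lies lower in IP in mouse 1 of bARK and mouse 3 of bARK(D110A).

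The 3 genes C4b, Serping1 and C3 were high and low in the same mice. Mouse 1 of bARK(D110A) was the highest of 8 and mouse 3 of bARK(D110A) the lowest of 8 for all 3 genes, in IP and again in input. In IP the highest mouse had 14.9 times the level of the lowest for C3, 7.32 times for Serping1 and 3.64 times for C4b. In input these ratios were 6.99 for C3, 3.75 for Serping1 and 3.99 for C4b. The SD between mice of a construct, on log2(CPM + 0.5) in IP, was 1.32 for C3, 0.97 for Serping1 and 0.60 for C4b, beside a median of 0.11 over 15002 genes. It was above that of 99.9% of these genes for C3, 99.7% for Serping1 and 98.3% for C4b. The pattern was seen in the same libraries, so these are descriptions.

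The C1q chains showed the same 2 mice at both ends in input. In input, mouse 1 of bARK(D110A) was the highest and mouse 3 of bARK(D110A) the lowest of 8 for all 3 chains, by 1.90 to 2.01 times. In such bulk RNA fewer microglia and less RNA per microglial cell cannot be told apart. In IP the highest chain levels were in mouse 3 of bARK for C1qa and C1qb and in mouse 4 of bARK(D110A) for C1qc, and the lowest in mouse 2 of bARK(D110A) for C1qa, mouse 1 of bARK for C1qb and mouse 3 of bARK(D110A) for C1qc. Itgam in input had the same 2 mice at its ends, with 50.5 CPM in mouse 1 of bARK(D110A) and 36.5 CPM in its mouse 3. Some other marker lists moved with these mice, though not all of them and not always in both kinds of RNA. In input, mouse 1 of bARK(D110A) had the highest summed level of microglia markers (1246 CPM, and 808 CPM in its mouse 3, the lowest), of neutrophil and monocyte markers (14.3 CPM, against 2.33 to 7.12 CPM in the other 7) and of ependyma and choroid plexus markers (47.2 CPM, against 24.0 to 33.7 CPM). In IP, the summed ependyma and choroid plexus level was 153 CPM in mouse 1 and 57.1 CPM in mouse 3 of bARK(D110A), the ends of the 8. The same mice were at the ends in IP for the oligodendrocyte markers (10673.6 CPM in mouse 1 and 4020.9 CPM in mouse 3) and for the neutrophil and monocyte markers (0.489 CPM and 0.0436 CPM). In input the oligodendrocyte sum was highest in mouse 2 of bARK(D110A), with 9604 CPM against 8219 CPM in its mouse 1. The neutrophil and monocyte sum in input was lowest in mouse 2 of bARK (2.33 CPM). The astrocyte sum in input was lowest in mouse 1 of bARK(D110A) (5410.5 CPM). Of the 7 neutrophil and monocyte markers, up to 2 were at 0 reads in an input library and up to 6 in an IP library. The part of these cells in the levels of C4b, Serping1 and C3 was not tested.

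**Figure D4:**
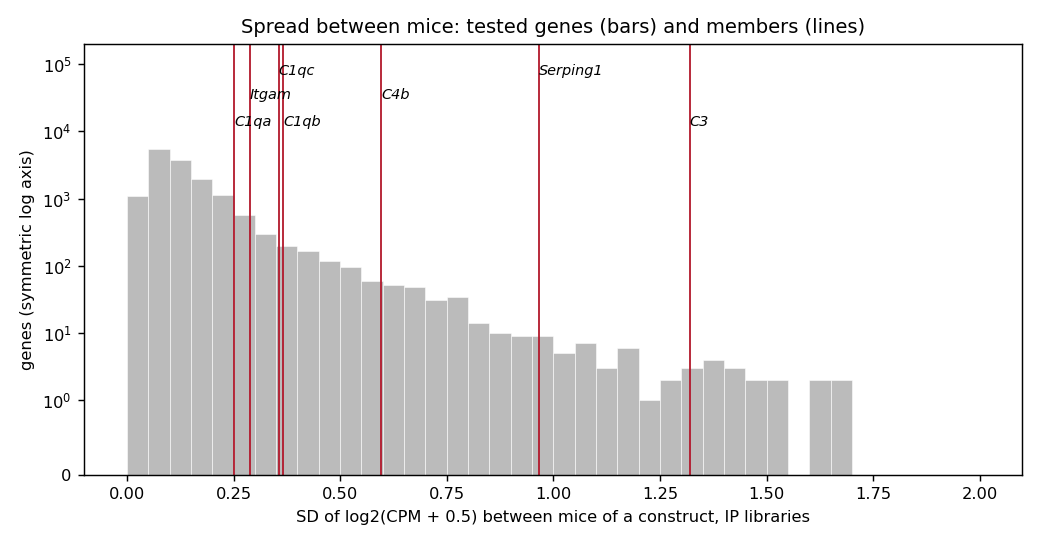
Spread between mice in the IP libraries, as the SD of log2(CPM + 0.5) within constructs: grey bars count the 15002 genes by their SD (symmetric log axis) and red lines mark the 7 members that passed the filter in IP. C3, at 1.32, Serping1, at 0.97, and C4b, at 0.60, lie in the right tail, and the C1q chains and Itgam between 0.25 and 0.37.

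By likeness over the 16 libraries, the 3 genes nearest to Serping1 were Tap1, a peptide transporter of antigen presentation, Gm4951 and Irgm2, an interferon-inducible GTPase, with root-mean-square differences of 0.19, 0.20 and 0.20. Those nearest to C4b were Vim, the intermediate filament protein vimentin, Serpina3n, a protease inhibitor known from reactive astrocytes, and Flnc, with 0.20, 0.23 and 0.24. C3 had no close match: the nearest were Casp12, Uba7 and C1s1, with 0.51, 0.51 and 0.53. For C3ar1 (nearest Inpp5d, Lpcat2 and Fes, 0.16 to 0.18) and C5ar1 the 0.5 added to the CPM flattens the course, and for C5ar1 the measure says nothing.

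Levels can be set side by side between genes only per length. Per kilobase of exon sequence, C4b had 198 ± 47.7 CPM in bARK IP and 212 ± 105 CPM in bARK(D110A) IP (SD, n = 4 each), far above Serping1 with 15.3 ± 8.4 and 15.8 ± 13.3 CPM per kilobase. C3 followed with 4.03 ± 2.21 and 5.41 ± 3.52, then C1qa with 1.81 ± 0.46 and 1.68 ± 0.37, C1qb, C1qc, Itgam, C3ar1 and C5ar1. The ranges of C3 and C1qa overlapped in IP with both constructs, and those of Serping1 and C3 in bARK(D110A) IP. In input the order was another: C1qa led with 91.1 ± 12.7 CPM per kilobase in bARK and 103 ± 29.3 in bARK(D110A), C1qb with 57.8 ± 7.6 and 61.6 ± 17.7 and C1qc with 57.3 ± 6.5 and 63.5 ± 17.5 did not differ from each other beyond their spread, and C4b stood at 35.4 ± 9.3 and 45.0 ± 25.1. Itgam had 8.25 ± 0.58 and 8.91 ± 1.16, and Serping1 (3.05 ± 0.92 and 3.72 ± 2.38) and C3 (2.01 ± 0.68 and 2.99 ± 2.22) overlapped.

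The rest of the pathway was followed with 49 other complement genes of the table, of which 32 passed the count filter. With bARK 10 were higher in IP, 16 lower and 6 did not pass, and with bARK(D110A) 8 were higher, 16 lower and 8 did not pass, with medians of -0.58 and -0.50. Over all genes tested, 37.6% were called higher and 38.1% lower with bARK, and 36.5% and 37.2% with bARK(D110A). In the initiation of the classical and lectin pathways, the proteases C1ra (2.21 ± 0.61 with bARK, 1.82 ± 0.60 with bARK(D110A)), C1s1 (2.09 ± 0.59 and 1.69 ± 0.56) and Masp1 (1.62 ± 0.13 and 1.73 ± 0.13; log2 fold change ± SE) were higher in IP, 3 of the 8 tested with each construct. With bARK(D110A) the calls of C1ra and C1s1 were lost without IP library 1, where their values were 1.17 (adjusted p = 0.067) and 1.16 (adjusted p = 0.063). Those are enzymes that C1q and the lectins activate. The paralogs C1rb and C1s2 fell under the count filter, and how reads shared with them were counted is not given in the sources used here. C1ra had 7.81 ± 4.06 CPM in bARK IP and 1.66 ± 0.58 CPM in bARK input, and with bARK(D110A) it had 7.11 ± 5.41 CPM in IP and 2.04 ± 1.47 CPM in bARK(D110A) input (SD, n = 4 each). Colec12, a scavenger receptor with a lectin domain, was lower in IP (-0.46 and -0.35). C2, the partner of C4 in the C3-cutting enzyme, did not pass (1.03 ± 0.67 and 1.10 ± 0.65, edgeR adjusted p = 0.18 and 0.14), and passed with the mouse as a block (1.00 and 0.87, adjusted p = 0.0011 and 0.0028).

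In the alternative pathway Cfp, properdin, which stabilises the C3-cutting enzyme, was lower in IP (-2.75 ± 0.24 with bARK, -3.02 ± 0.25 with bARK(D110A)), where 1 of the 2 genes tested was lower with bARK and 2 of 2 with bARK(D110A). Of the soluble regulators, Clu, clusterin, was higher (2.46 ± 0.08 and 2.29 ± 0.08) with 2777 ± 170 CPM in bARK IP and 505 ± 27.7 CPM in bARK input, and with 2550 ± 176 CPM in bARK(D110A) IP and 522 ± 59.6 CPM in bARK(D110A) input. Vtn, vitronectin, was lower (-1.62 ± 0.08 and -1.88 ± 0.09). The 3 terminal components tested gave 2 higher and 1 lower with bARK, and 0 higher and 1 lower with bARK(D110A). Of the 10 membrane regulators tested, 3 were higher and 6 lower with bARK, and 3 higher and 5 lower with bARK(D110A). Among them Cd55, which speeds the decay of the C3-cutting enzyme, was higher (0.89 ± 0.12 and 0.85 ± 0.12), and so, slightly, was Cr1l, the mouse regulator Crry (0.18 ± 0.07 and 0.23 ± 0.07). Cr1l did not pass with the library size as the only scaling (0.034 and 0.069), and with bARK it also did not pass without IP library 1 or 2 or input library 1 or 4 (0.14 to 0.17). Cd46 (-1.71 ± 0.22 and -1.86 ± 0.22), Csmd3 (-0.91 ± 0.08 and -0.78 ± 0.08) and Csmd1 (-0.77 ± 0.07 and -0.65 ± 0.07) were lower. Among the other receptors, 4 of 5 tested were lower with each construct, among them Itgb2, the beta chain that pairs with the Itgam product (-4.40 ± 0.27 and -5.09 ± 0.28), Itgax (-4.16 ± 0.62 and -4.43 ± 0.59) and Cd93 (-3.18 ± 0.16 and -3.46 ± 0.16), while C1qbp, a mitochondrial protein that also binds C1q, was higher (0.33 ± 0.05 and 0.36 ± 0.05). Of these 5 receptors, 3 passed the count filter in the IP libraries alone. For receptors that did not pass there, the filter itself favours a lower call. Itgax had only 2 to 12 reads per library in bARK IP and 5 to 13 in bARK(D110A) IP.

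The size of the IP enrichment did not differ detectably between the constructs. The difference of the log2 fold changes, bARK minus bARK(D110A), ran from -0.04 ± 0.25 (SE) for Itgam to 0.43 ± 1.09 for C5ar1, and 0 of the 9 genes passed (lowest edgeR adjusted p = 0.91), where 0% of all 15850 genes did. Of these genes 951 had an unadjusted p under 0.05, and DESeq2 and limma-voom called 0 as well. With the mouse as a block the lowest adjusted p among the members was 0.46, for C4b (0.24 ± 0.12). The 3 C1q chains differed by 0.27 ± 0.34, 0.36 ± 0.42 and 0.32 ± 0.39, and the microglia markers had a median of 0.26. That median was not particular to microglia. It was 0.25 for the astrocyte markers, 0.24 for ependyma and choroid plexus, 0.18 for endothelial cells and 0.61 for border macrophages. For mural cells and fibroblasts it was 0.10, for oligodendrocytes 0.09, for neurons -0.16 and for neutrophils and monocytes -0.14.

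On astrocyte ribosomes no complement gene differed between bARK and bARK(D110A) at a level the 8 IP libraries could show. C4b averaged 1066 ± 257 CPM in bARK IP and 1140 ± 567 CPM in bARK(D110A) IP, Serping1 30.8 ± 16.8 CPM in bARK IP and 31.8 ± 26.7 CPM in bARK(D110A) IP, and C3 20.7 ± 11.3 CPM in bARK IP and 27.8 ± 18.1 CPM in bARK(D110A) IP (SD, n = 4 each). The groups overlapped for all 9 genes, and the share of all tested genes that overlapped was not counted. Of the 7 members that passed the filter in IP, 0 were called, as were 0% of the 15006 genes tested. The log2 fold changes were -0.11 ± 0.39 (SE) for C4b, -0.06 ± 0.67 for Serping1 and -0.45 ± 0.77 for C3, and 0.10 ± 0.21, 0.28 ± 0.31 and 0.17 ± 0.31 for C1qa, C1qb and C1qc. Itgam was at -0.16 ± 0.26, and the lowest edgeR adjusted p of the 7 was 0.82. The standard errors of C3 and Serping1 were the largest of the 7, so that smaller differences of these genes were not detectable in 8 libraries. Unadjusted, 1287 genes had a p under 0.05. DESeq2 called 37 genes higher and 11 lower, none of them a member, and limma-voom called 0. Of the other complement genes, 0 of 29 passed.

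In whole striatum no member passed between the constructs either. In CPM, C1qa averaged 94.7 ± 13.2 with bARK and 107 ± 30.5 with bARK(D110A), C4b 190.2 ± 50.1 with bARK and 242 ± 135 with bARK(D110A), and Itgam 40.7 ± 2.9 with bARK and 43.9 ± 5.7 with bARK(D110A) (SD, n = 4 each). The groups overlapped for all 9 genes, again without a count over all tested genes. In the test 0 of 9 passed, as did 0% of the 15361 genes tested, of which 904 had an unadjusted p under 0.05. The log2 fold changes ran from -0.56 ± 0.59 (SE) for C3 to 0.14 ± 0.29 for C5ar1, with a lowest edgeR adjusted p of 0.81, for Itgam (-0.12 ± 0.09). DESeq2 called 2 genes higher, neither of them a member, and limma-voom called 0, and of the other complement genes 0 of 30 passed. 

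**Figure D5:**
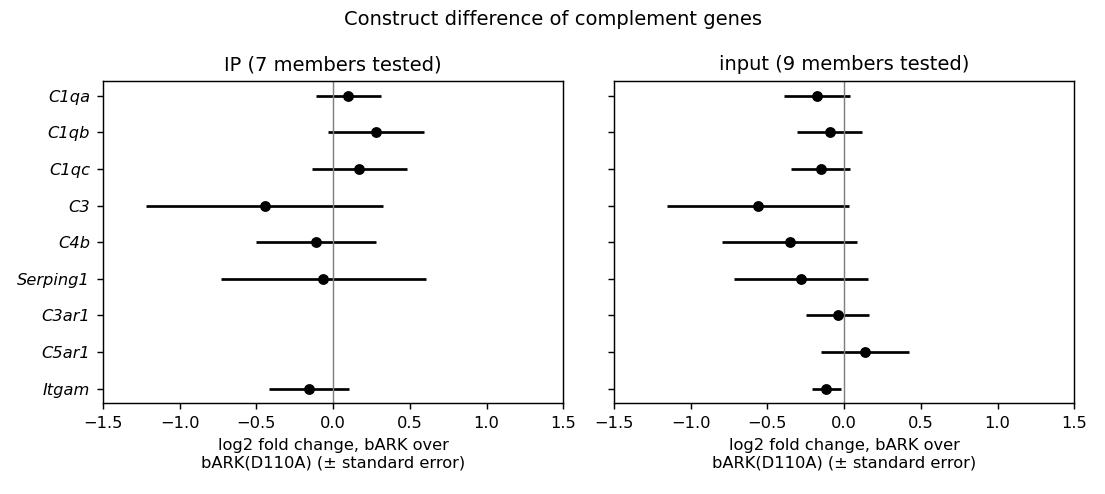
Log2 fold change of bARK over bARK(D110A) for the members in IP (left, the 7 that passed the count filter) and in input (right, 9), with bars of 1 standard error. All values lie between -0.56 and 0.28, and the bars of C3 and Serping1 are the widest in IP.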

How the data were processed

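RNA-seq of 16 libraries was analysed. The authors deposited 1 table of raw read counts per gene as whole numbers. The tools named are bcl2fastq 2.17, STAR, HTSeq and limma, with the build mm10, per the submitters' processing notes. Other versions, the annotation and the strand setting are not given in the sources used here. Genes that overlap or are antisense are therefore uncertain. Libraries were made with a Nugen Ovation kit from 100 ng RNA, per the labels' protocols, so amplification is part of every count. The table has 24060 lines, and none of the genes named here is among the 2 symbols that are repeated.

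From these counts, CPM with effective library sizes (TMM, trimmed mean of M values) and edgeR 4.0.16 quasi-likelihood tests (R 4.3.3, robust, filterByExpr minimum count 10, Benjamini-Hochberg over all genes tested, threshold 0.05) were computed. IP against input and the difference between constructs came from 1 fit of 16 libraries, and the construct comparisons from the 8 IP or the 8 input libraries. Fits were also run on simulated data with the same dispersion for every gene and no link between IP and input of a mouse. Spreads as wide as those of C3, Serping1 and C4b were not simulated. Alternatives were DESeq2 1.42.0, limma-voom (limma 3.58.1), library-size scaling, other count filters, a replicate block, other sets of libraries and leaving out each library. Leaving out both libraries of a mouse was chosen after seeing the data.

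IP and input with the same construct and number were read as the same mouse: the design text says that both kinds of RNA were purified from the same homogenised striata, and the numbers match, but no label ties a number to an animal. Their deviations from the group means correlated at 0.202 to 0.62 in the 8 pairs. The members and the gene lists were chosen with earlier results of these data known. Beyond the members, each role list gave up to 3 higher and 3 lower genes that passed with both constructs at a mean of at least 1 CPM, ranked by the smaller fold change; C2 was named after its values were seen. A few genes are not reported here. Likeness named the 3 nearest genes with a mean of at least 1 CPM. Shared sequence was counted over windows of 75 bases in GENCODE vM21 transcripts, exon lengths come from GENCODE vM21, and positions and promoters from RefSeq GRCm38.p6. Intervals and floors (3 reads for a count of 0) cover counting error only.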

Additional observations from a re-analysis of the deposited data

Results flagged for a closer look

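Of the 36 groups of 4 libraries (9 genes, 4 groups), 5 held a library far from the other 3, with a gap to the nearest library beyond Dixon's 95% critical value. Chance gives about 1 group in 20. C1qa was highest in bARK IP library 3 with 2.60 CPM, against 1.61 to 1.71 CPM in the others. C3 was lowest in bARK input library 2 with 5.11 CPM, against 11.9 to 12.2 CPM, and C4b was lowest in the same library with 115.8 CPM, against 205 to 222 CPM. Itgam was highest in bARK input library 3 with 44.9 CPM, against 38.8 to 39.6 CPM. C5ar1 was highest in bARK(D110A) IP library 1 with 0.0407 CPM, which is 2 reads, against 0 reads in the other 3 libraries, a case in which any library with reads stands apart by construction. The cause was not tested.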

How the results depend on the processing

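The results of IP against input kept their direction and side of the threshold under every alternative that could be fitted for 8 of the 9 genes with bARK. With bARK(D110A) they did so for all 9, where C3 never passed. C5ar1 fell under the filter at a minimum count of 50. C3 passed with bARK under the replicate block alone (0.93, in place of 1.00), and the block changed no other call of a member. In the construct comparisons the numbers pair nothing (correlations of -0.345 to -0.12 in IP and -0.0746 to 0.176 in input), and with the replicate block 0 genes were called. With DESeq2, 37 genes were higher and 11 lower in IP and 2 higher in input, in place of 0; the cause was not tested. With a minimum count of 50, 6 other complement genes were higher with bARK, in place of 10; Cr1l, still tested, lost its call (0.13), and for the others the cause was not tested. C1s1 with bARK(D110A) also did not pass with limma-voom (1.56), without both libraries of mouse 2 (1.61) or in a fit of its own construct (1.68).

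Directions that no test called did change. With libraries left out, the difference of the enrichment ran from -0.047 to 0.56 for C1qb, -0.51 to 0.47 for C3, -0.20 to 0.59 for C4b, -0.34 to 0.95 for Serping1, -0.027 to 0.51 for C3ar1, -0.63 to 2.54 for C5ar1 and -0.24 to 0.093 for Itgam. bARK against bARK(D110A) in IP ran from -0.085 to 0.26 for C1qa, -0.12 to 0.47 for C1qb, -0.026 to 0.43 for C1qc, -0.36 to 0.25 for C4b and -0.47 to 0.69 for Serping1. In input it ran from -0.32 to 0.027 for C1qa, -0.24 to 0.11 for C1qb, -0.28 to 0.049 for C1qc, -0.88 to 0.060 for C3, -0.60 to 0.080 for C4b, -0.50 to 0.27 for Serping1 and -0.18 to 0.072 for C3ar1. With limma-voom in IP, C4b was at 0.0051 and Serping1 at 0.14, and with the replicate block Serping1 was at 0.11. Counts limit C5ar1 most, with 0 to 2 reads per IP library.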

Other observations

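Some complement genes were at or near 0 in every library. Cfd, the protease of the alternative pathway, C9, the pore-forming terminal component, and the lectin gene Mbl1 had 0 reads in all 16 libraries, which allows up to 3 reads per library, 0.061 to 0.103 CPM. Whether the annotation or the counting behind the table sets these zeros is not known here, so the limit is one on counted reads. These genes were chosen after their values were seen.

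Read against C4b, C3 had fewer reads in IP than in input. C3 had 1.84 ± 0.63 reads per 100 C4b reads in bARK IP and 5.32 ± 0.62 in bARK input, and 2.20 ± 1.09 in bARK(D110A) IP and 5.83 ± 1.32 in bARK(D110A) input (SD, n = 4 each), with no overlap. Serping1 had 2.76 ± 0.91 reads per 100 C4b reads in bARK IP and 3.28 ± 0.71 in bARK input, and 2.49 ± 0.84 in bARK(D110A) IP and 3.09 ± 0.50 in bARK(D110A) input, with overlap. No test of these ratios was run.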
